A study of Drosophila melanogaster with 103 samples.

Results

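The genes ph-d, ph-p, Psc and Su(z)2 encode subunits of Polycomb repressive complex 1 (PRC1), and their own chromatin was read in 3 cultured lines of Drosophila melanogaster. They are 4 of the 13946 protein-coding genes on the chromosomes covered by the peak lists, chosen by name, and each was taken as its gene body plus 10 kb on each side. Chromatin immunoprecipitation followed by sequencing had been made from 41 libraries of D17 (ML-DmD17-c3, derived from imaginal discs, the larval precursors of adult structures), 21 of Kc167 (an embryonic line) and 41 of S2 (S2-DRSC, an embryonic line with features of blood cells). All cells were unmodified and untreated as far as the labels say, each group is a single established line, and each antibody had 2 replicate libraries, fixed from separate flasks, beside 1 input library per line. Every antibody gave 1 deposited list of peaks per line, 50 in all: the 20 lists of D17 held 81372 peaks, the 10 of Kc167 held 53028 and the 20 of S2 held 93254.

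PRC1 is a chromatin complex that keeps developmental genes silent. Its Polycomb subunit (Pc) binds H3K27me3, the histone mark that PRC2 sets, and its ring finger subunits place ubiquitin on histone H2A, giving H2AK118ub1. In flies the complex is brought to DNA at Polycomb response elements, where factors such as Pho, Spps and GAF bind. ph-d and ph-p encode the distal and proximal Polyhomeotic proteins (Ph), which hold a SAM domain through which PRC1 units join into larger assemblies. Psc encodes Posterior sex combs, a ring finger protein that compacts chromatin, and Su(z)2 encodes its paralog. Genes of PRC1 have long been described in flies as targets of Polycomb proteins themselves.

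The 4 genes form 2 loci, so they are not independent observations. On the X chromosome of the dm6 assembly, ph-d (Dmel_CG3895) spans positions 2115727 to 2123286 and ph-p (Dmel_CG18412) spans 2126210 to 2138371. Their bodies are 2.92 kb apart, and their windows share 17.1 kb. They are close copies of each other, so reads from the sequence they share may have been placed on either one, and peaks inside them are uncertain to that extent. On chromosome arm 2R, Psc (Dmel_CG3886) spans 12965997 to 12980994 and Su(z)2 (Dmel_CG3905) spans 12996501 to 13007911, with 15.5 kb between their bodies. The windows of a pair were joined into the ph locus (42.6 kb) and the Psc-Su(z)2 locus (61.9 kb). The ph locus also holds parts of csw, D2hgdh and Pgd, and the Psc-Su(z)2 locus holds lncRNA:CR44339 and CG33798 between the members. The gene table used gives no strand, so the ends of a gene are called low and high by coordinate.

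Both loci carried peaks in nearly every list. The ph locus had peaks in 19 of the 20 D17 lists, 10 of the 10 Kc167 lists and 20 of the 20 S2 lists. H3K27me3 in D17 was the list without one. The Psc-Su(z)2 locus had peaks in 20 of the 20 D17 lists, 9 of the 10 Kc167 lists and 19 of the 20 S2 lists, and H3K36me3 was the missing list in Kc167 and S2. Taken gene by gene, each member had peaks in 19 lists in D17, where 1.78% of all gene windows had as many or more. In Kc167, ph-d had peaks in 8 lists, Psc and Su(z)2 in 9, and ph-p in 10. Of all windows, 60.0% reached at least 8 lists there, so the Kc167 counts lie in a common range. In S2, Su(z)2 had peaks in 17 lists, Psc in 19, and ph-d and ph-p in 20, and 18.2% of all windows reached at least 17. Over all lists, the Psc-Su(z)2 locus held 180 D17 peaks, 78 Kc167 peaks and 166 S2 peaks, and the shorter ph locus held 97 D17, 69 Kc167 and 114 S2 peaks.

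**Figure D1:**
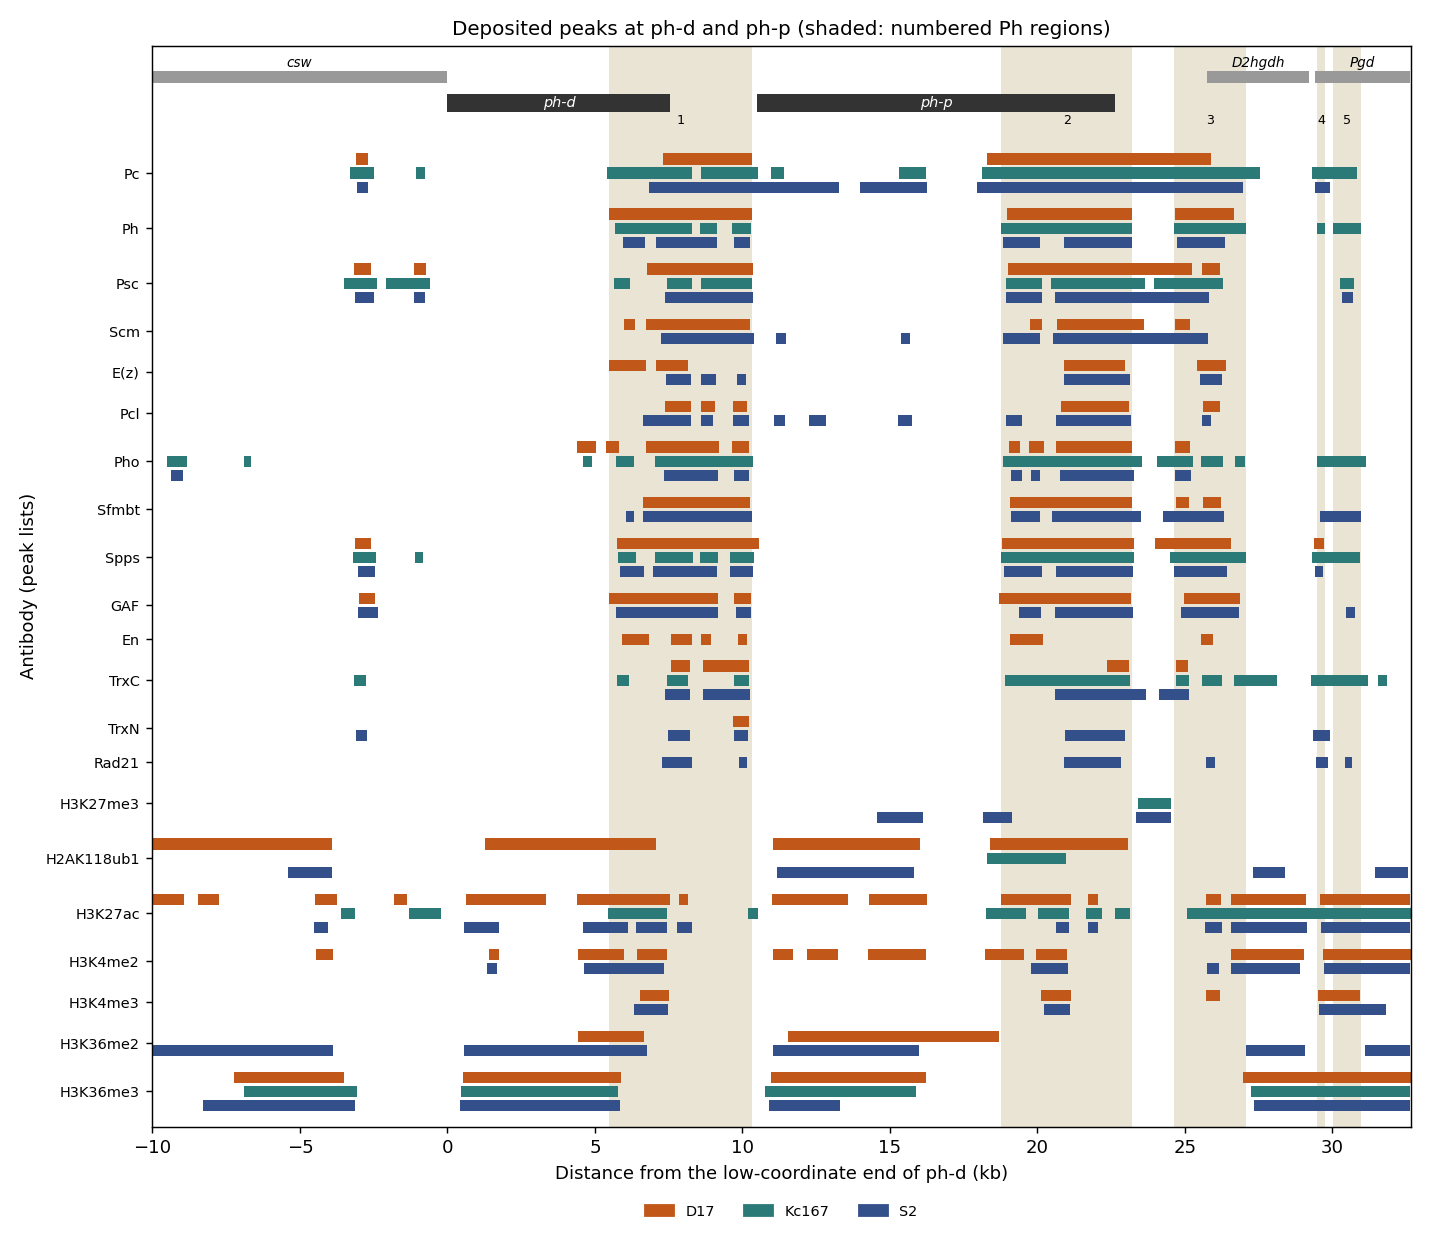
Peaks of every list at the ph locus, drawn as bars against distance in kb from the low-coordinate end of ph-d. Each antibody has up to 3 rows (D17, Kc167, S2 from top to bottom, only where a list exists), shaded columns are the 5 numbered Ph regions, dark boxes are ph-d and ph-p, and grey boxes are neighbouring genes. The protein peaks gather over regions 1, 2 and 3 in every line, while H3K36me3 lies beside them and H3K27me3 is short or missing.

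**Figure D2:**
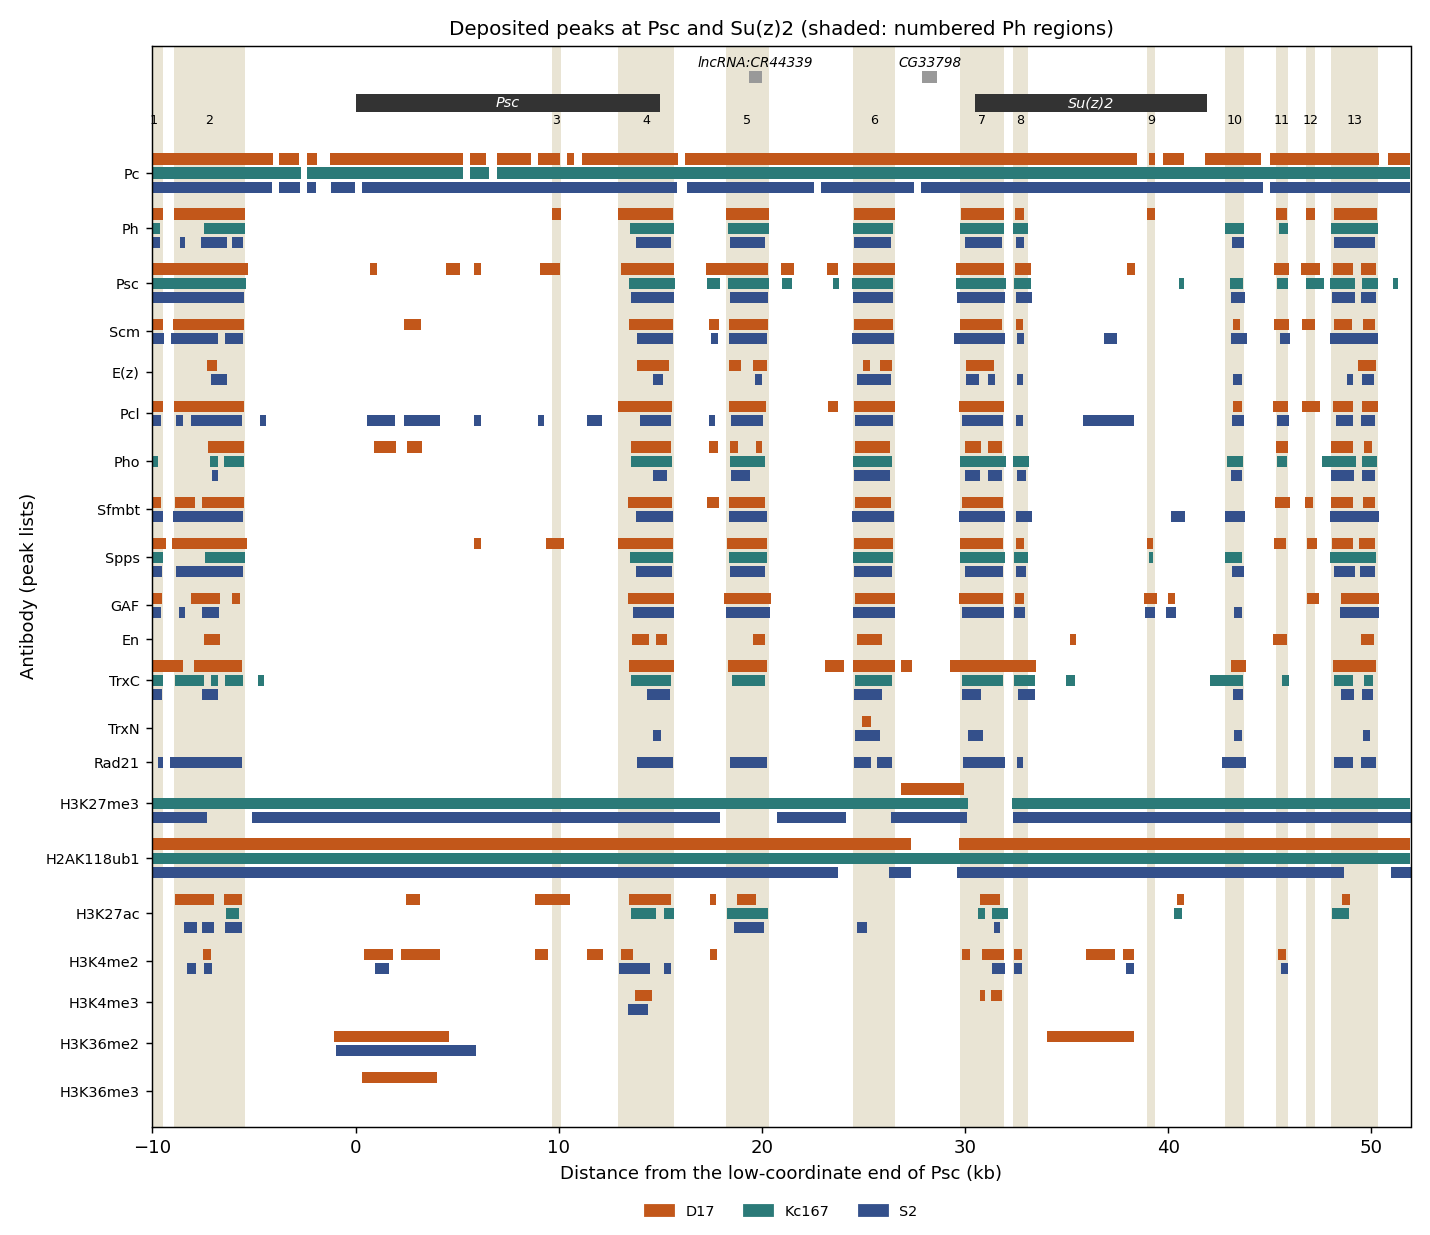
Peaks of every list at the Psc-Su(z)2 locus, drawn as bars against distance in kb from the low-coordinate end of Psc, with the rows in the same order and the 13 Ph regions shaded; peaks that run past the window are drawn to its edge. H2AK118ub1 and Pc cover most of the locus in all 3 lines, H3K27me3 does so in Kc167 and S2, and D17 has a single short H3K27me3 peak.

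The subunits of PRC1 itself had some of the higher peaks of their lists at both loci. A peak has a fold enrichment, which is the authors' value and ranks peaks only within its own list, so each is given here with its percentile in that list. At the ph locus the highest Ph peak had a fold of 23.6 in D17 (percentile 97.2), 20.7 in Kc167 (percentile 95.8) and 24.1 in S2 (percentile 98.5). The highest Pc peak there had a fold of 10.0 in D17 (percentile 95.3), 18.5 in Kc167 (percentile 99.1) and 22.5 in S2 (percentile 99.1). Both proteins thus stood in the upper 5% of their lists at ph in each line. Psc protein reached a fold of 18.2 in D17 (percentile 96.6), 21.4 in Kc167 (percentile 94.9) and 13.8 in S2 (percentile 85.6). The S2 value was the lowest rank of the PRC1 subunits at this locus. In Kc167 and S2 this highest Psc peak lay inside the neighbouring gene csw. In the ph-p window, which leaves that peak out, Psc protein stood at percentile 85.2 in Kc167 and 84.6 in S2.

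At the Psc-Su(z)2 locus the highest Ph peak had a fold of 23.6 in D17 (percentile 97.1), 37.8 in Kc167 (percentile 99.5) and 33.1 in S2 (percentile 99.5). A Ph peak at or above the 99th percentile was held by 0.588% of all gene windows in D17, by 0.853% in Kc167 and by 0.423% in S2, and here the locus passed that line in Kc167 and S2. The highest Pc peak had a fold of 10.6 in D17 (percentile 95.6), 15.1 in Kc167 (percentile 98.5) and 11.1 in S2 (percentile 94.4). Psc protein on its own gene pair had a fold of 16.7 in D17 (percentile 96.3), 19.8 in Kc167 (percentile 93.9) and 18.1 in S2 (percentile 90.1). Scm, a Polycomb group protein with a SAM domain of its own, was profiled in D17 and S2. Its highest peak stood at percentile 96.4 in D17 and 91.3 in S2 at ph, and at 94.7 in D17 and 91.1 in S2 at Psc-Su(z)2.

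The PRC2 proteins ranked higher at Psc-Su(z)2 than at ph in both lines with lists. E(z), the enzyme that methylates H3K27, reached percentile 95.0 in D17 and 98.2 in S2 at Psc-Su(z)2. At ph its highest peak, over the low end of D2hgdh, was at percentile 82.3 in D17 and 71.6 in S2. Pcl, a PRC2 cofactor, reached percentile 96.5 in D17 and 98.5 in S2 at Psc-Su(z)2. At ph it reached 83.7 in D17 and 98.1 in S2, so that in S2 Pcl stood about equally high at both loci.

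Among the DNA-binding proteins, Spps and Pho ranked high at ph. Spps, a zinc finger protein of the Sp1 family, had a fold of 40.1 in D17 (percentile 99.5), 35.7 in Kc167 (percentile 99.4) and 58.9 in S2 (percentile 99.03). It was the single antibody at or above the 99th percentile at ph in all 3 lines, where 0.509% of all windows in D17, 1.21% in Kc167 and 0.502% in S2 had such a Spps peak. In S2 that place was narrow: ranked by the -log10 q value Spps stood at percentile 98.5, and within the X chromosome alone at 98.7. From the higher-scoring 50% of each list, ph had 0 lists at that level in D17, Kc167 and S2. Pho, the zinc finger protein that anchors the Pho-repressive complex, had a fold of 12.5 in D17 (percentile 95.7), 27.2 in Kc167 (percentile 97.9) and 25.8 in S2 (percentile 96.6) at ph. Its partner Sfmbt stood at percentile 95.9 in D17 and 98.3 in S2 there. At Psc-Su(z)2, Spps had percentiles of 98.4 in D17, 99.1 in Kc167 and 97.6 in S2. Pho stood at 93.1 in D17, at 96.8 in Kc167 and at 92.2 in S2, and Sfmbt at 94.9 in D17 and 96.8 in S2. Spps, Pho and Sfmbt thus stood at percentile 92.2 or higher at both loci. The share of all windows with such ranks was not computed for Pho and Sfmbt. GAF, which binds GA-rich DNA, was highest at Psc-Su(z)2, with percentiles of 97.3 in D17 and 99.6 in S2. At ph it stood at 94.9 in D17 and 95.2 in S2, in peaks over the low end of D2hgdh. Engrailed (En), a homeodomain repressor profiled in D17, ranked at percentile 97.3 at Psc-Su(z)2 and 80.2 at ph.

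Trithorax, the methyltransferase that opposes Polycomb proteins, was read with a pair of antibodies labelled TrxC and TrxN. At ph, TrxC stood at percentile 79.5 in D17, at 96.5 in Kc167 and 95.5 in S2, and at Psc-Su(z)2 at 89.9 in D17, at 96.3 in Kc167 and at 87.6 in S2. TrxN ranked in the middle of its lists at ph, at 52.6 in D17 and 54.4 in S2, and low at Psc-Su(z)2, at 12.9 in D17 and 30.6 in S2. The cohesin subunit Rad21, profiled in S2, stood at 44.4 at ph and 74.7 at Psc-Su(z)2. TrxN thus had the lowest rank of all proteins at Psc-Su(z)2 in both lines, and at ph the lowest were TrxN in D17 and Rad21 in S2.

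Over all protein lists, the median percentile of the highest peak at ph was 95.3 in D17 (13 lists), 97.2 in Kc167 (6 lists) and 95.5 in S2 (13 lists). At Psc-Su(z)2 the median was 95.6 in D17, 97.7 in Kc167 and 94.4 in S2. Marks included, the lists at or above the 99th percentile at ph were Spps in D17, and Pc and Spps in Kc167 and S2. At Psc-Su(z)2 they were H2AK118ub1 in D17, then Ph, Spps, H3K27me3 and H2AK118ub1 in Kc167, and Ph and GAF in S2. At least 1 such list was found in the windows of 3 of the 4 members in D17, 4 of 4 in Kc167 and 3 of 4 in S2, against 17.2% of all windows in D17, 9.55% in Kc167 and 16.3% in S2. Psc was the member with none in D17 and in S2. For ph-d and ph-p the peaks so counted were the same ones, Spps in D17, and Pc and Spps in S2. These members are therefore not separate hits there. In Kc167 the single such list of Psc was H2AK118ub1, whose peak of 113 kb also counts for Su(z)2, so Psc is not a separate hit there. With flanks of 5 kb, Psc-Su(z)2 had 3 such lists in Kc167 and 0 in S2, and cutting the lists to their higher-scoring 50% left 0 in Kc167 and 1 in S2. A longer locus gives more peaks from which the highest is taken, and the joined loci are longer than a single gene window.

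**Figure D3:**
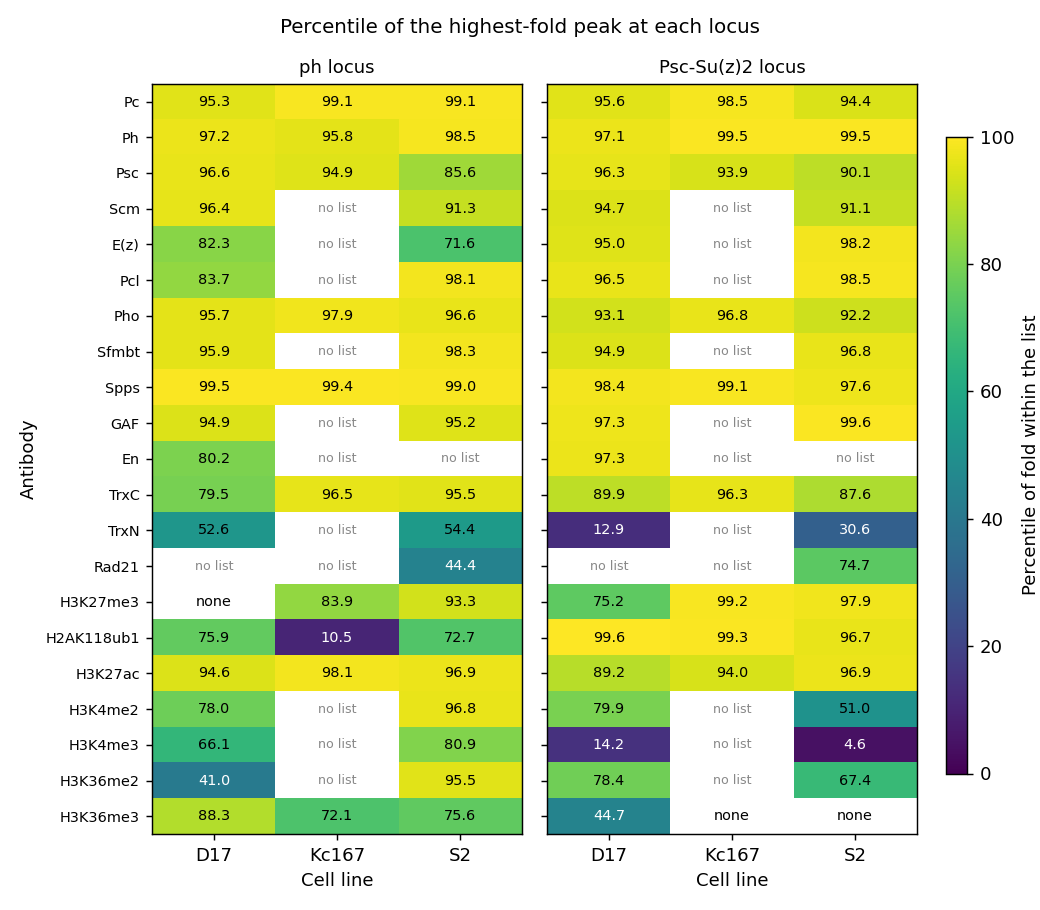
Percentile of the highest-fold peak at the ph locus (left) and the Psc-Su(z)2 locus (right) within its own list, by antibody (rows) and cell line (columns). Cells marked none had a list but no peak, and cells marked no list had no list. Most protein cells lie above 90, with TrxN at 52.6 and 54.4 at ph and at 12.9 and 30.6 at Psc-Su(z)2.

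Repressive marks set the loci apart from each other, and set D17 apart from the other lines. H3K27me3 covered 0% of the Psc body in D17, against 100% in Kc167 and 100% in S2. Of the Su(z)2 body it covered 0% in D17, against 84.3% in Kc167 and 83.8% in S2. ph-d had none in D17, Kc167 or S2, and ph-p had none in D17 and Kc167 and 21.1% in S2. At least 50% of the body was thus covered in 0 of 4 members in D17, 2 of 4 in Kc167 and 2 of 4 in S2, where the share of all genes was 7.65% in D17, 15.4% in Kc167 and 16.1% in S2. The D17 list of H3K27me3 is the shortest, with 1076 peaks over 17.6 Mb, against 1739 peaks over 23.3 Mb in Kc167 and 1625 over 26.2 Mb in S2. Cut to the length of the D17 list, the Kc167 and S2 lists still covered 100% of Psc in both lines, and 84.3% of Su(z)2 in Kc167 and 83.8% in S2. That cut could hardly have removed the peaks over Psc and Su(z)2, at percentiles 98.8 and 99.2 in Kc167 and 93.8 and 97.9 in S2. The highest fold of the list was 2.44 in D17, 3.15 in Kc167 and 3.28 in S2. Whether weaker H3K27me3 lay over these genes in D17, below the lowest deposited fold of 1.5, was not tested. With no replicate values, no error can be put on the difference between the lines.

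H2AK118ub1, the mark that PRC1 sets, covered 100% of Psc and 100% of Su(z)2 in D17, Kc167 and S2. At ph it differed between lines. It covered 76.4% of ph-d in D17 and 0% in both Kc167 and S2, and 75.8% of ph-p in D17, 22.1% in Kc167 and 38.4% in S2. Coverage of at least 50% was met by 4 of 4 members in D17, 2 of 4 in Kc167 and 2 of 4 in S2. The share of all genes was 26.3% in D17, where this list spans 39.6 Mb, 9.87% in Kc167 (16.5 Mb) and 11.3% in S2 (15.5 Mb). In D17, Psc and Su(z)2 were therefore covered by H2AK118ub1 without H3K27me3 over their bodies.

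Pc covered most of Psc and Su(z)2 in every line, and varied more between lines over ph-d and ph-p. It covered 87.3% of Psc in D17, with 94.9% in Kc167 and 97.8% in S2, and 82.2% of Su(z)2 in D17, 100% in Kc167 and 100% in S2. On ph-d it covered 3.31% in D17, with 28.4% in Kc167 and 9.62% in S2, and on ph-p 35.9% in D17, 48.8% in Kc167 and 80.3% in S2. The Psc-Su(z)2 locus was thus spanned by Pc in all 3 lines, also in D17, where H3K27me3 was not called over the genes.

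The length of the repressive peaks shows the same. In D17 the single H3K27me3 peak of the Psc-Su(z)2 locus ran for 3.08 kb between the genes, at percentile 75.2 of its list. In Kc167, H3K27me3 formed a peak of 59.1 kb that holds Psc and 6 other genes whole, and a peak of 66.1 kb on the other side. They were parted by a gap of 2.13 kb at the low end of Su(z)2, which overlapped a Ph peak. In S2 the mark was split into 5 peaks of 5.27, 23.0, 3.36, 3.75 and 32.8 kb. The 4 gaps between them, of 2.23, 2.81, 2.23 and 2.25 kb, each overlapped at least 1 Ph peak. H3K27me3 was thus interrupted at 1 bound place in Kc167 and at 4 in S2, but not at all of them: Ph region 13, described further on, had the highest Ph peak of the locus and lay whole under H3K27me3 in both lines.

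H2AK118ub1 at Psc-Su(z)2 ran in peaks of 54.1 and 35.6 kb in D17. They were parted by 2.38 kb without a Ph peak, and the D17 H3K27me3 peak spans that gap. In Kc167 a single H2AK118ub1 peak of 113 kb covered Psc, Su(z)2 and 8 other genes whole, and was wider than 99.9% of the list. In S2 there were 4 peaks, of 40.9, 1.11, 19.0 and 14.2 kb. Of the 3 gaps between these, 2 overlapped a Ph peak. Over ph-d and ph-p, by contrast, the repressive peaks were short. H3K27me3 had 1 peak of 1.14 kb in the ph locus in Kc167 and 3 of 1.56, 1.00 and 1.17 kb in S2. H2AK118ub1 had peaks over the gene bodies of 5.77, 4.96 and 4.71 kb in D17, 1 of 2.69 kb in Kc167 and 1 of 4.67 kb in S2.

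H3K27ac, which marks active promoters and enhancers, was wider at ph. It covered 77.7% of ph-d in D17, 26.8% in Kc167 and 50.1% in S2. It covered 59.6% of ph-p in D17, 24.8% in Kc167 and 6.73% in S2. On Psc it covered 26.4% in D17, with 8.27% in Kc167 and 0% in S2, and on Su(z)2 11.6% in D17, 13.8% in Kc167 and 2.31% in S2. Some H3K27ac was found on 4 of 4 members in D17, 4 of 4 in Kc167 and 3 of 4 in S2, against 54.0% of all genes in D17, 50.7% in Kc167 and 50.5% in S2. Su(z)2 in Kc167 and S2 carried H3K27ac peaks and H3K27me3 over most of its length in the same culture, and these lists cannot tell whether both marks were on the same cells.

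H3K36me3, which is laid down behind elongating RNA polymerase, covered 71.0% of ph-d in D17, 70.1% in Kc167 and 72.0% in S2. On ph-p it covered 43.2% in D17, 42.1% in Kc167 and 19.6% in S2. On Psc it covered 24.4% in D17 and 0% in Kc167 and S2, and Su(z)2 had none in any of the 3 lines. ph-d was the single member with at least 50% in each line, against 45.7% of all genes in D17, 42.4% in Kc167 and 41.7% in S2. At the ph locus the mark was in 4 peaks in each line, and Ph regions 1, 2 and 3, described next, lay wholly or mostly in the stretches between them, so that H3K36me3 and the strongest Ph peaks alternated along the locus.

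H3K4me3, the mark of active promoters, had peaks on 4 of 4 members in D17 and on 3 of 4 in S2, where Su(z)2 had none, against 47.6% of all genes in D17 and 47.3% in S2. It covered 13.2% of ph-d in D17 and 15.1% in S2, and 8.32% of ph-p in D17 and 7.27% in S2. On Psc the shares were 5.48% in D17 and 6.64% in S2, and on Su(z)2 7.03% in D17. The highest of these at Psc-Su(z)2 stood at percentile 14.2 in D17 and 4.57 in S2, so the H3K4me3 peaks over this pair were among the lowest of their lists. This was not particular to the pair: the peak on ph-d stood at 12.6 in D17 and 25.7 in S2. The peak on ph-p stood at 41.2 in D17 and 21.2 in S2. The higher values of the ph locus, 66.1 in D17 and 80.9 in S2, came from peaks over Pgd. H3K4me2 was on 4 of 4 members in both lines, against 61.7% of all genes in D17 and 50.9% in S2. In S2, H3K4me2 covered 40.5% of ph-d but 10.4% of ph-p, against 14.9% of Psc and 12.6% of Su(z)2. H3K36me2 covered 29.6% of ph-d in D17 and 81.8% in S2, and on ph-p 58.7% in D17 and 40.9% in S2. On Psc it covered 30.8% in D17 and 39.6% in S2, and on Su(z)2 37.3% in D17 and 0% in S2, so neither line was the higher one at both genes of a pair.

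**Figure D4:**
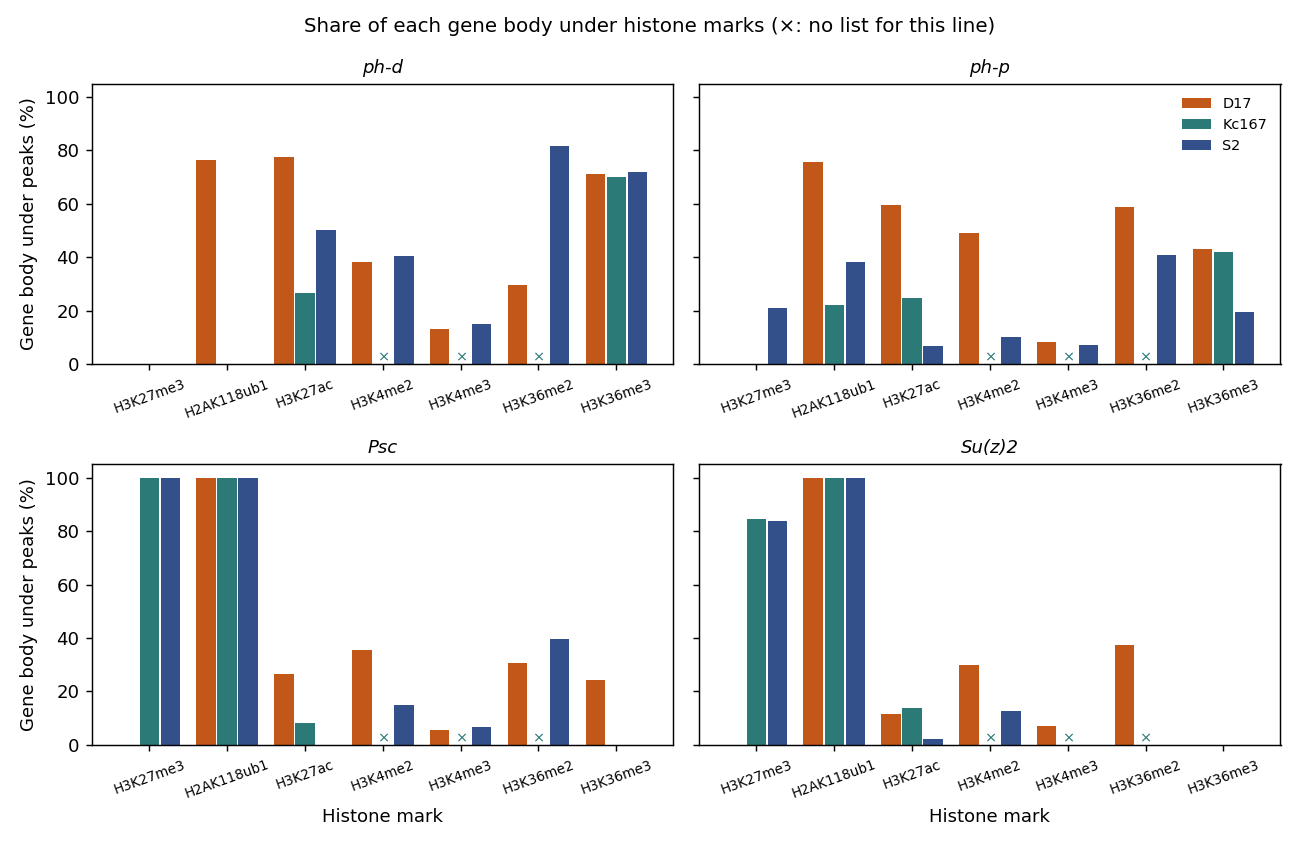
Share of each gene body under the peaks of 7 histone marks, in percent, with bars for D17, Kc167 and S2 from left to right, and a cross where a line has no list. Psc and Su(z)2 reach 100% H2AK118ub1 in all 3 lines and over 80% H3K27me3 in Kc167 and S2 but 0% in D17, while ph-d and ph-p carry H3K36me3 in every line.

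Overlapping Ph peaks of the 3 lines were joined into Ph regions, 5 at ph and 13 at Psc-Su(z)2. Of these, 3 at ph and 8 at Psc-Su(z)2 had a Ph peak in all 3 lines. The 5 proteins profiled in every line with a role at response elements (Pc, Ph, Psc, Pho and Spps) were all present in every line in 3 regions at ph and 6 at Psc-Su(z)2. At ph these were region 1 (positions 2121203 to 2126056, over the high end of ph-d), region 2 (2134505 to 2138937, over the high end of ph-p) and region 3 (2140353 to 2142817, 1.98 kb beyond ph-p). At Psc-Su(z)2 they were regions 2, 4, 5, 6, 7 and 13. Region 4 (12978915 to 12981676) lies over the high end of Psc and region 7 (12995721 to 12997931) over the low end of Su(z)2, while regions 5 and 6 lie between the genes. Each member thus has a bound region over 1 of its ends, and other bound regions lie outside the bodies. Region 3 at ph overlaps the low end of the neighbouring gene D2hgdh.

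The strongest Ph peaks of the Psc-Su(z)2 locus were in region 13 (13014015 to 13016306), 6.10 kb beyond the high end of Su(z)2. Its Ph summit, the position of highest signal, lay at 13015749 in D17, at 13015756 in Kc167 and at 13015749 in S2, a spread of 7 bp. The locus maxima of Ph, GAF and E(z) were all there, in each line with a list. GAF had a fold of 80.0 in D17 and 127 in S2, and E(z) 9.36 in D17 and 8.44 in S2. The highest Pho peak in D17 and S2 was instead in region 6 (12990487 to 12992530), 3.97 kb from the low end of Su(z)2, with folds of 9.40 in D17 and 13.3 in S2. In Kc167 it was in region 13, with a fold of 20.7. The top Pho and the top Ph peak thus lay in different regions in D17 and S2.

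At ph, region 1 had the highest Ph peak in D17 (fold 23.6), and region 2 had it in Kc167 (fold 20.7) and S2 (fold 24.1). The other of the pair was close behind in S2, at 22.5 in region 1. Region 3 had the highest GAF peak of the locus, with a fold of 67.7 in D17 and 74.4 in S2, whereas Spps was highest in region 1 in D17 (fold 40.1) and S2 (fold 58.9) and in region 2 in Kc167 (fold 35.7). For Spps the other region was close behind in S2, at 58.8 in region 2, and in Kc167, at 33.4 in region 1. Regions 4 and 5 at ph, over Pgd, had Ph in Kc167 alone, at percentiles 8.41 and 18.3 of its list. Most regions at Psc-Su(z)2 with Ph in fewer than 3 lines were likewise low: region 3 stood at percentile 4.36, region 9 at 35.3 and region 12 at 2.22, each in D17 alone. Region 10 was the exception, at percentile 81.2 in Kc167 and 84.0 in S2 with no Ph peak in D17.

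**Figure D5:**
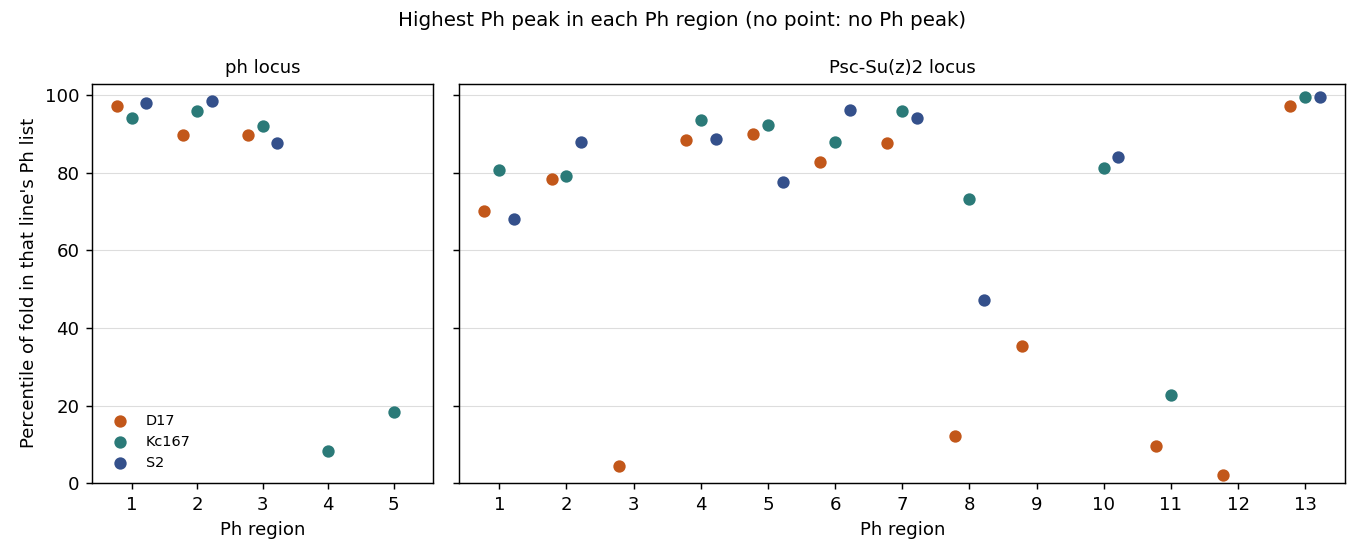
Percentile of the highest Ph peak in each numbered Ph region, within the Ph list of D17, Kc167 or S2; a missing point means no Ph peak in that line. Regions 1, 2 and 3 at ph and 4, 7 and 13 at Psc-Su(z)2 stand high in all 3 lines, and region 13 has the highest points of its locus.

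The marks over these regions again differed by locus. At ph, H3K27ac overlapped all 5 regions in D17, Kc167 and S2. Of these, regions 4 and 5 lie over Pgd and had a Ph peak in Kc167 alone. The 3 regions with a Ph peak in every line carried H3K27ac in each. H3K27me3 overlapped 0 of the 5 regions in D17, 0 in Kc167 and 1 in S2. At Psc-Su(z)2, H3K27me3 overlapped 1 of 13 in D17, 13 of 13 in Kc167 and 12 of 13 in S2. H3K27ac overlapped 6 in D17, against 5 in Kc167 and 4 in S2, and 3 of them, regions 2, 5 and 7, carried it in every line. Region 5 had 0% of its length under H3K27me3 in D17, against 100% in Kc167 and 0% in S2, and 45.2% under H3K27ac in D17, 92.9% in Kc167 and 69.1% in S2. Region 6, between the genes and bound by all 5 proteins in each line, had no H3K27ac in D17 and Kc167 and 24.7% of its length under it in S2.

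For Ph, Spps and Psc protein, summits were placed closely across lines. In the 11 regions with a Ph peak in all 3 lines, the summits of the highest Ph peaks had a median spread of 13 bp, and 10 of the 11 lay within 100 bp. For Spps the median was 20 bp over 12 regions, with 9 within 100 bp, and for Psc protein 23 bp over 11 regions, with 9 within 100 bp. Pho was looser, with a median of 56 bp over 9 regions and 5 within 100 bp. In region 1 the Ph summits lay at 2123514 in D17, at 2123504 in Kc167 and at 2123515 in S2, whereas those of Pho lay at 2123547 in D17, at 2124526 in Kc167 and at 2124511 in S2. The Ph summits there spanned 11 bp and the Pho summits 979 bp, with D17 the line that stood apart for Pho. The Spps summits there spanned 2249 bp. Where a region holds several peaks of a protein, a different one can be the highest in each line. The regions were also drawn from Ph peaks, so Ph and the other proteins are not compared on equal terms. Pc went the other way, with a median of 7184 bp over 16 regions and 1 within 100 bp. Its long peaks often span several regions, so the same summit is counted for more than 1 of them and can lie outside the region. This also touches Psc protein, whose summits in regions 1 and 2 of Psc-Su(z)2 were the same and lay outside region 2. In ph region 3 its D17 and S2 summits were those of region 2.

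Peaks at the gene ends, counted within 500 bp of a boundary, were uneven. The high end of ph-d had peaks in 16 of 20 lists in D17, 7 of 10 in Kc167 and 16 of 20 in S2, and its low end in 0 in D17, 2 in Kc167 and 1 in S2. The high end of Psc had peaks in 15 D17 lists, 9 Kc167 lists and 16 S2 lists, and its low end in 5 in D17, 3 in Kc167 and 4 in S2. Su(z)2 was the mirror image, with 15 in D17, 9 in Kc167 and 15 in S2 at its low end, and 2 in D17, 4 in Kc167 and 3 in S2 at its high end. Both ends of ph-p were occupied, the low end in 13 D17 lists, 8 Kc167 lists and 14 S2 lists, and the high end in 12 D17, 7 Kc167 and 13 S2 lists. The low end of ph-p faces ph-d across the 2.92 kb between the bodies, which Ph region 1 largely covers.

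The positions bound by proteins were compared between lines by shared length, which for most proteins was larger at both loci than over whole lists. The share is the length under peaks in both lines divided by the length under peaks in either. Over 6 protein antibodies its median between D17 and Kc167 was 62.9% at ph and 68.4% at Psc-Su(z)2, against 27.4% over whole lists. All 6 were above their whole-list value at each locus, but TrxC at ph only just, at 18.1% against 17.9%. Between D17 and S2, over 12 antibodies, the median was 64.4% at ph and 64.9% at Psc-Su(z)2, against 33.0% over whole lists. There 11 of 12 were above at each locus. TrxN was the exception, with 10.9% at ph and 13.3% at Psc-Su(z)2 against 49.5% over its whole lists. Between Kc167 and S2 the median was 66.5% at ph and 77.1% at Psc-Su(z)2, against 33.6% over whole lists, with 6 of 6 above. Histone marks were mixed. Between D17 and Kc167 at Psc-Su(z)2, H3K27me3 shared 5.16% against 27.3% over whole lists, while H2AK118ub1 shared 96.2% against 20.9%. Other loci with high peaks were not compared in this way.

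Other genes of the Polycomb and trithorax groups were read in the same way. Of 37 such genes on a list of PRC1, PRC2, recruiter and trithorax group members, 4 had peaks of Pc, Ph, Psc, Pho and Spps in their windows in every line, whereas 4 of 4 members had them, against 5.11% of all windows. Those 4 were jing (a PRC2 cofactor), psq and grh (DNA-binding factors) and nej (the acetyltransferase CBP, which places H3K27ac). Under 50% of the body under H3K27me3 in each line together with the 5 proteins was met by ph-d and ph-p and by 2.60% of all genes. H3K27me3 covered at least 50% of 1 of the 37 genes in D17 (grh), and of 3 in Kc167 and 3 in S2 (RYBP, jing and grh). RYBP encodes a subunit of variant PRC1, and at 0% in D17 against 100% in Kc167 and 100% in S2 it had the values of Psc.

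A Ph peak at or above the 99th percentile stood near Trl, the gene of GAF, in D17, near Trl, psq and nej in Kc167, and near nej in S2. The median number of lists with a peak over the 37 genes was 13 in D17, 8 in Kc167 and 15 in S2, against 10 in D17, 8 in Kc167 and 13 in S2 over all genes. Among the remaining PRC1 genes, Pc had no Ph peak in D17 and one at percentile 29.7 in Kc167 and 54.0 in S2. Sce, the ubiquitin ligase of the complex, had none in D17, Kc167 or S2. The strong Ph peaks of PRC1 genes were thus at ph, at Psc-Su(z)2 and at RYBP, where they stood at percentile 94.5 in D17, 95.6 in Kc167 and 95.2 in S2.

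The genes most like each locus were ranked by the mean absolute difference of the highest-peak percentile over all 50 lists. Nearest to ph were E(Pc) (Enhancer of Polycomb, 9.61), the homeobox gene Gsc (9.83), pros (10.3), kn (11.1) and the GATA factor gene srp (11.6), against a median of 50.5 over 13932 genes. These 5 differed in H3K27me3. It covered 0% of srp and 100% of Gsc in D17, Kc167 and S2, and 66.9% of pros in D17, 87.2% in Kc167 and 78.5% in S2. It covered 95.3% of kn in D17, 96.6% in Kc167 and 96.3% in S2. On E(Pc) it covered 0% in D17, 20.01% in Kc167 and 19.6% in S2. Nearest to Psc-Su(z)2 were KP78a and KP78b (9.96 each, at the same coordinates in the gene table and inside pros), bab2 (10.9), cnc (11.6) and ham (11.9), against a median of 58.3. The bab2 gene, a transcription factor gene of limb and ovary development, had 0% of its body under H3K27me3 in D17, 73.5% in Kc167 and 74.4% in S2, low in D17 alone like Psc and Su(z)2. The others did not share that pattern: KP78a and KP78b had 0% in D17, against 100% in Kc167 and 22.9% in S2. On cnc it was 48.3% in D17, against 0% in Kc167 and 50.6% in S2, while ham had 100% in each line. The loci differed from each other by 17.9 on this scale.

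Marker genes of the source tissues could be read only by their marks, since no RNA values were used here. Of 10 imaginal disc genes, H3K27me3 covered at least 50% of the body of 7 in D17, against 9 in Kc167 and 9 in S2, and H3K27ac touched 5 in D17, against 2 in Kc167 and 2 in S2. Of all genes, H3K27me3 covered 7.65% in D17, 15.4% in Kc167 and 16.1% in S2 to that extent. H3K27ac touched 54.0% of all genes in D17, against 50.7% in Kc167 and 50.5% in S2, so the 5 disc genes with H3K27ac in D17 lie near the background share. Of 10 blood cell genes, H3K27me3 covered 1 in D17, against 1 in Kc167 and 2 in S2, and H3K27ac touched 7 in D17, 6 in Kc167 and 8 in S2. Whether Psc, Su(z)2, ph-d and ph-p were transcribed at different levels in the 3 lines was not analysed here.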

How the data were processed

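ChIP-seq peak lists of 21 antibodies in D17, Kc167 and S2 were used, 1 per antibody and line. Per the submitters' processing notes, the tools were Trim Galore 0.6.4, Bowtie2 2.3.5.1, SAMtools 1.13, MACS2 2.2.6 and bedtools 2.29.2, with the builds BDGP6 and dm6. How replicates and input entered a list is not given in the sources used here, so depth is unknown, no spread between replicates can be given and no test was made. The authors' peak caller gave each deposited peak a fold enrichment (a ratio), a score and a -log10 q value. In all, 39 lists are in the narrow layout and 11 in the broad layout. The lowest deposited fold was 1.5, so weaker enrichment is absent from every list.

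Genes came from a RefSeq table of the Release 6 assembly without strand or sequence. The members and gene lists were chosen with earlier results of these data known. Overlap meant at least 1 bp. A percentile is the share of peaks in the list with a lower fold, plus ties counted at 50%. Named genes were the members, their neighbours, the 5 genes most like each locus, and genes of a fixed Polycomb and trithorax list (37 of 38 names matched; calypso did not) with at least 50% of the body under H3K27me3 or a Ph peak at or above the 99th percentile. Other genes of that list (Pc, Sce) and region 13 were named after their values were seen, and the Ph regions were defined after seeing the data. Alternatives were 5 kb flanks, bodies alone, 50% of a peak's width in the window, lists cut to their higher-scoring 50% or to equal lengths, ranks by -log10 q and ranks within the same chromosome arm. Counting, coverage and percentiles were tested on simulated data (1000 windows each, 0 wrong). Computations used Python 3.11.15, NumPy 2.4.6, pandas 2.3.3 and matplotlib 3.10.9.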

Additional observations from a re-analysis of the deposited data

How the results depend on the processing

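No replicate could be left out, and no paired analysis was possible because the lists carry no values of single replicates. Lists with a peak stayed within 1.5 times under 30 of 30 alternatives. Lists at or above the 99th percentile stayed within 1.5 times under 27 of 42. At Psc-Su(z)2 in S2 they numbered 0 with 5 kb flanks and 0 over bodies alone, where Ph region 13 falls outside. With the higher-scoring 50% of each list they numbered 0 at ph in D17, Kc167 and S2, and 0 in Kc167 and 1 in S2 at Psc-Su(z)2. Shorter lists lower the percentile of the same peak. With equal list lengths they numbered 0 in Kc167 and 1 in S2 at ph, and 0 in D17 and 2 in Kc167 at Psc-Su(z)2. Ranked by -log10 q, ph had 1 in Kc167 and 0 in S2, and within the same arm it had 0 in S2. Requiring 50% of the peak width left 2 at Psc-Su(z)2 in Kc167.

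H3K27me3 coverage stayed within 1 percentage point under 28 of 36 alternatives. The higher-scoring 50% gave 12.9% on ph-p in S2. Over bodies plus 10 kb it was 5.67% on ph-d in S2, 3.53% in Kc167 and 11.6% in S2 on ph-p, 83.1% on Psc in S2, and 9.81% in D17, 93.2% in Kc167 and 84.9% in S2 on Su(z)2. The contrast of D17 with Kc167 and S2 kept its direction for Psc and Su(z)2 under each of these. The peaks over these genes in Kc167 and S2 ranked high, so cutting the lower-scoring peaks could hardly have removed them. H3K27ac coverage stayed within 1 percentage point under 11 of 36. The higher-scoring 50% gave 41.5% in D17, 0% in Kc167 and 34.1% in S2 on ph-d, 8.79% in Kc167 and 3.05% in S2 on ph-p, 10.4% in D17 on Psc, and 0% in D17, Kc167 and S2 on Su(z)2. Equal lengths gave 41.5% in D17 and 34.1% in S2 on ph-d, 10.4% in D17 on Psc, and 0% in D17 and S2 on Su(z)2. Over bodies plus 10 kb it was 49.6% in D17, 14.3% in Kc167 and 17.2% in S2 on ph-d, 60.8%, 41.6% and 35.1% on ph-p, 24.3%, 12.5% and 11.1% on Psc, and 5.34% in D17 and 7.64% in Kc167 on Su(z)2. So the lower H3K27ac peaks on Su(z)2 depend on list length. For the Ph regions, 2 alternatives were chosen after seeing the data. The higher-scoring 50% of the Ph lists gave 3 regions at ph and 9 at Psc-Su(z)2, and joining Ph peaks within 500 bp gave 4 at ph and 12 at Psc-Su(z)2. Regions with Ph in all 3 lines numbered 3 at ph and 7 at Psc-Su(z)2 under both.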
